A study of Homo sapiens with 51 samples.

Results

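Immediate early genes are followed here through the first 96 h of differentiation of a human embryonic stem cell line. The set was named gene by gene, with no threshold on measured values, and holds 34 of the 58051 gene rows of the count table. It covers the AP-1 subunits and their partner ATF3 (FOS, FOSB, FOSL1, FOSL2, JUN, JUNB, JUND, ATF3), the zinc finger factors EGR1 to EGR4, the orphan nuclear receptors NR4A1 to NR4A3 and the Krüppel-like factors KLF2, KLF4, KLF6 and KLF10. The others are MYC, SRF, the IER genes IER2, IER3 and IER5, the phosphatases DUSP1, DUSP2 and DUSP5, the genes BTG2, ZFP36 and GADD45B, which act in growth arrest, mRNA decay and stress signalling, and the effectors ARC, RHOB, SGK1 and MCL1. After a filter on low counts 33 of the 34 were tested; EGR4 was not, and its highest count in any library was 4.

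Immediate early genes are transcribed from factors already present in the cell, so their mRNA can appear without new protein synthesis. In many cell types growth factors switch them on through ERK signalling, which acts on serum response factor (SRF) and its partners at the CArG box of promoters such as FOS and EGR1, and the transcripts then decay within hours through unstable mRNA. BMP4 and Activin signal by another route, receptor kinases that phosphorylate SMAD proteins, whose early targets include ID and LEFTY genes.

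The cells were of the H1 line, established from a human embryo and pluripotent. The untreated group, at 0 h, was grown in mTeSR. The other cells were moved to TeSR E5 with insulin, FGF2 and LY29004 and received Activin at 100 ng/mL with BMP4 at 10 ng/mL (written Activin+BMP4), or BMP4 at 50 ng/mL (written BMP4), and were collected at 1, 6, 12, 24, 36, 48, 72 and 96 h. This gave 17 groups of 3 libraries, 51 in all. The change of medium comes with both treatments, and no group had the medium without ligand, so the medium and the ligands cannot be told apart in any comparison with untreated cells. The conditions also differ in BMP4 dose, which cannot be told apart from the presence of Activin. No sample was taken between 0 and 1 h.

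Library totals ran from 22.8 to 30.4 M counts, with a median of 24.9 M. The pluripotency genes checked (8 genes) summed to between 8956 and 9189 CPM (counts scaled to library size) in the untreated libraries and to between 8896 and 9166 at 1 h in the treated ones. Mitochondrial transcripts took 2.29% to 2.75% of counts in untreated libraries and 0.607% to 3.88% over all. Replicate 2 of Activin+BMP4 at 48 h, replicate 3 of Activin+BMP4 at 96 h and replicate 1 of BMP4 at 12 h stood apart from their groups. The labels name no separate cultures, so the tests measure the spread between these samples. In bulk RNA, fewer cells expressing a gene and less RNA per cell cannot be told apart.

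Promoters of 4 members are shown first, because FOS and EGR1 are the textbook serum-responsive genes and DUSP1 and GADD45B were higher 1 h after the treatments began. Each is the 250 bases before the annotated start, on the strand of the gene, from RefSeq (GRCh38.p14): FOS at chr14:75278578-75278827 (plus strand), EGR1 at chr5:138465229-138465478 (plus strand), DUSP1 at chr5:172771196-172771445 (minus strand) and GADD45B at chr19:2475877-2476126 (plus strand). Capitals mark the motifs found.
FOS: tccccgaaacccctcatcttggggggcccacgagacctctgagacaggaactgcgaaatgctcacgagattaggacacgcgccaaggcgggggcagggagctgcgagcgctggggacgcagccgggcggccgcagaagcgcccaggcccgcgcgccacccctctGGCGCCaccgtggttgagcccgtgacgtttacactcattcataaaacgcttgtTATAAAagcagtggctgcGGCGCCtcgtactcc
EGR1: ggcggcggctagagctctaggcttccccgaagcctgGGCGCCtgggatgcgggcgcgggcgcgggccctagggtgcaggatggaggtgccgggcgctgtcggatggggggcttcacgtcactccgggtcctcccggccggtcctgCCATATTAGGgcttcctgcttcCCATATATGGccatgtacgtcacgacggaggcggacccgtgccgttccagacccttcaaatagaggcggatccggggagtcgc
DUSP1: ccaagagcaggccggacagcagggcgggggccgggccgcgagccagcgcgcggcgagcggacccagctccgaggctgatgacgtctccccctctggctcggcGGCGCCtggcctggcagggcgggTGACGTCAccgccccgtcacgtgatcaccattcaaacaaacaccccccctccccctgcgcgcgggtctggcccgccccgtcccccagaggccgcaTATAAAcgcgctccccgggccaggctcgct
GADD45B: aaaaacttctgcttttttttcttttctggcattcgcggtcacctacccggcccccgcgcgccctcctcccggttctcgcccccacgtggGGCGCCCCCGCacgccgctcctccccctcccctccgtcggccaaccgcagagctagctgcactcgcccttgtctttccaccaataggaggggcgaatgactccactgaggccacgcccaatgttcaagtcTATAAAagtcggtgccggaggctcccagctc
In EGR1 the capitals mark 2 CArG boxes, 105 to 96 and 83 to 74 bases before the start, and a GC box of the kind bound by BMP SMADs (GGCGCC). FOS held the GC box at 2 places and a TATA box (TATAAA) 33 to 28 bases before its start. DUSP1 held the cyclic AMP response element (TGACGTCA), the GC box and a TATA box, and GADD45B held a TATA box and a GC box that overlaps an EGR site (GCGTGGGCG or GCGGGGGCG). Both strands were searched, in 32 promoters of the 25 members present in the table and in the 35116 promoters of the whole table.

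The CArG box lay in the promoters of 3 of 25 members (EGR1, EGR2 and SRF) and in 1.16% of all promoters. The cyclic AMP response element lay in 2 (JUND and DUSP1; 1.65% of all) and the EGR site in 7 (KLF2, KLF6, SRF, DUSP2, BTG2, GADD45B and SGK1; 5.37%). The GC box lay in 6 (FOS, EGR1, IER5, DUSP1, DUSP2 and GADD45B; 16.4%) and the TATA box in 7 (FOS, FOSB, JUNB, ATF3, DUSP1, GADD45B and SGK1; 10.7%). Neither the AP-1 site (TGACTCA or TGAGTCA; 4.2% of all) nor the SMAD palindrome (GTCTAGAC; 0.182%) was found in these windows of the members. These are matches of letters in a short window, and sites farther away were not searched. Members were counted once each over any of their promoters, while the percents count single promoters. Counted by promoter, the TATA box lay in 9 of 32 and the other counts were the same.

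Untreated cells held transcripts of all 34 members, at very different levels. Per kilobase of exon, MCL1, a survival protein of the BCL2 family, had the highest level at 103 CPM, followed by IER2 at 32.3, SRF at 28.96 and MYC at 25.2. JUND stood at 18.9 and JUN at 6.55 CPM per kilobase. The classic inducible members were lower: FOS had 2.73 CPM per kilobase and EGR1 2.17. At the bottom, FOSB had 0.114, EGR3 0.0418, NR4A3 0.0323 and EGR4 0.0230 CPM per kilobase, levels that rest on few counts. All values below are CPM without regard to length and compare a gene only with itself.

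At 1 h of either treatment, a single member, GADD45B, had passed both the test and a 2-fold change, and neither FOS nor EGR1 had. A member is called here at an edgeR adjusted p under 0.05 and a change of at least 2-fold. GADD45B, which binds the stress kinase activator MAP3K4 and is a known target of TGF-beta family signalling, had 4.46, 5.87 and 4.65 CPM in the untreated libraries. It had 22.5, 20.3 and 21.6 CPM at 1 h of Activin+BMP4 and 15.2, 14.8 and 12.5 CPM at 1 h of BMP4. All 6 treated libraries lay above the 3 untreated ones. The rise was 4.28-fold with Activin+BMP4 (log2 2.10, SE 0.12, edgeR adjusted p 8.69e-17) and 2.83-fold with BMP4 (log2 1.501, SE 0.12, edgeR adjusted p 5.60e-12). Among all genes tested 0.867% were called at 1 h of Activin+BMP4 and 1.21% at 1 h of BMP4, and a single member called supports no statement on the members as a group.

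FOS, the AP-1 subunit that classic serum stimulation induces most, had 9.28, 8.69 and 8.55 CPM in untreated cells. At 1 h it had 9.45, 10.3 and 11.5 CPM with Activin+BMP4 and 11.8, 12.4 and 12.2 CPM with BMP4. Every treated library was above the highest untreated one, but by little. The difference was 1.18-fold with Activin+BMP4 (log2 0.24, SE 0.10, edgeR adjusted p 0.148) and 1.37-fold with BMP4 (log2 0.46, SE 0.10, edgeR adjusted p 0.00109).

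EGR1, the zinc finger factor that usually rises with FOS, had 6.67, 6.32 and 7.42 CPM in untreated cells. It had 5.14, 5.57 and 5.49 CPM at 1 h of Activin+BMP4 and 8.15, 5.58 and 9.62 CPM at 1 h of BMP4. The Activin+BMP4 libraries all lay below the untreated ones, while the BMP4 libraries lay on both sides. Neither difference passed the test (log2 -0.33, SE 0.20, edgeR adjusted p 0.372, and log2 0.20, SE 0.19, edgeR adjusted p 0.604). FOSB had 0.804, 0.805 and 0.294 CPM untreated, 0.566, 1.56 and 0.903 CPM with Activin+BMP4 and 1.297, 0.736 and 1.65 CPM with BMP4, and its groups overlapped. Its BMP4 difference (log2 0.95, SE 0.34) had an edgeR adjusted p of 0.0670; without replicate 2 of BMP4 at 1 h FOSB was called and the count of called members was 2. The other members of these families, JUN, JUNB, JUND, FOSL1, FOSL2, ATF3, EGR2, EGR3 and NR4A1 to NR4A3, did not pass the test in either condition.

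Counting changes of any size, GADD45B included, 6 of 33 members passed the test at 1 h of Activin+BMP4 (8.18% of all genes) and 7 of 33 at 1 h of BMP4 (10.3% of all genes). DUSP1, a phosphatase that switches off MAP kinases, had 5.62, 6.36 and 5.07 CPM untreated, 9.27, 8.68 and 11.1 CPM with Activin+BMP4 and 8.92, 7.88 and 9.37 CPM with BMP4. It rose 1.70-fold (edgeR adjusted p 1.85e-05) and 1.53-fold (edgeR adjusted p 0.000542). RHOB, a small GTPase of the endosome, rose from 20.3, 21.0 and 20.3 CPM to 37.9, 34.2 and 37.6 CPM with Activin+BMP4 and to 34.7, 33.9 and 33.3 CPM with BMP4. For both genes the treated and untreated libraries did not overlap, and the RHOB rise was 1.78-fold (edgeR adjusted p 1.66e-07) and 1.65-fold (edgeR adjusted p 3.22e-06). SGK1, a kinase related to AKT, rose 1.303-fold with BMP4 (edgeR adjusted p 0.0144).

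ARC, best known as a capsid-like synaptic protein of neurons, fell at 1 h. It had 10.7, 10.6 and 10.7 CPM untreated, 7.01, 6.55 and 5.34 CPM with Activin+BMP4 and 7.18, 6.71 and 6.36 CPM with BMP4. The fall was 1.70-fold (edgeR adjusted p 0.00115) and 1.58-fold (edgeR adjusted p 0.00415), with no overlap of libraries. MYC, the growth-promoting transcription factor, fell from 75.8 ± 3.59 CPM (SD, n = 3) to 63.0 ± 2.77 and 56.2 ± 2.29 CPM (edgeR adjusted p 0.0467 and 0.000619). MCL1 fell 1.11-fold with Activin+BMP4 (edgeR adjusted p 0.00424). The median log2 change of the 33 members was 0.02 with Activin+BMP4 and 0.06 with BMP4, against 0.0013 and 0 for all genes.

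At 1 h the conditions were close. None of 33 members was called between BMP4 and Activin+BMP4 by edgeR (0.0051% of all genes) and 0 by DESeq2, with 3 members at an unadjusted p under 0.05. At any fold 1 member, GADD45B, passed the edgeR test (0.0102% of all genes), at 1.51-fold less with BMP4 (log2 -0.60, SE 0.11, edgeR adjusted p 0.0118), and its libraries did not overlap between conditions.

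**Figure D1:**
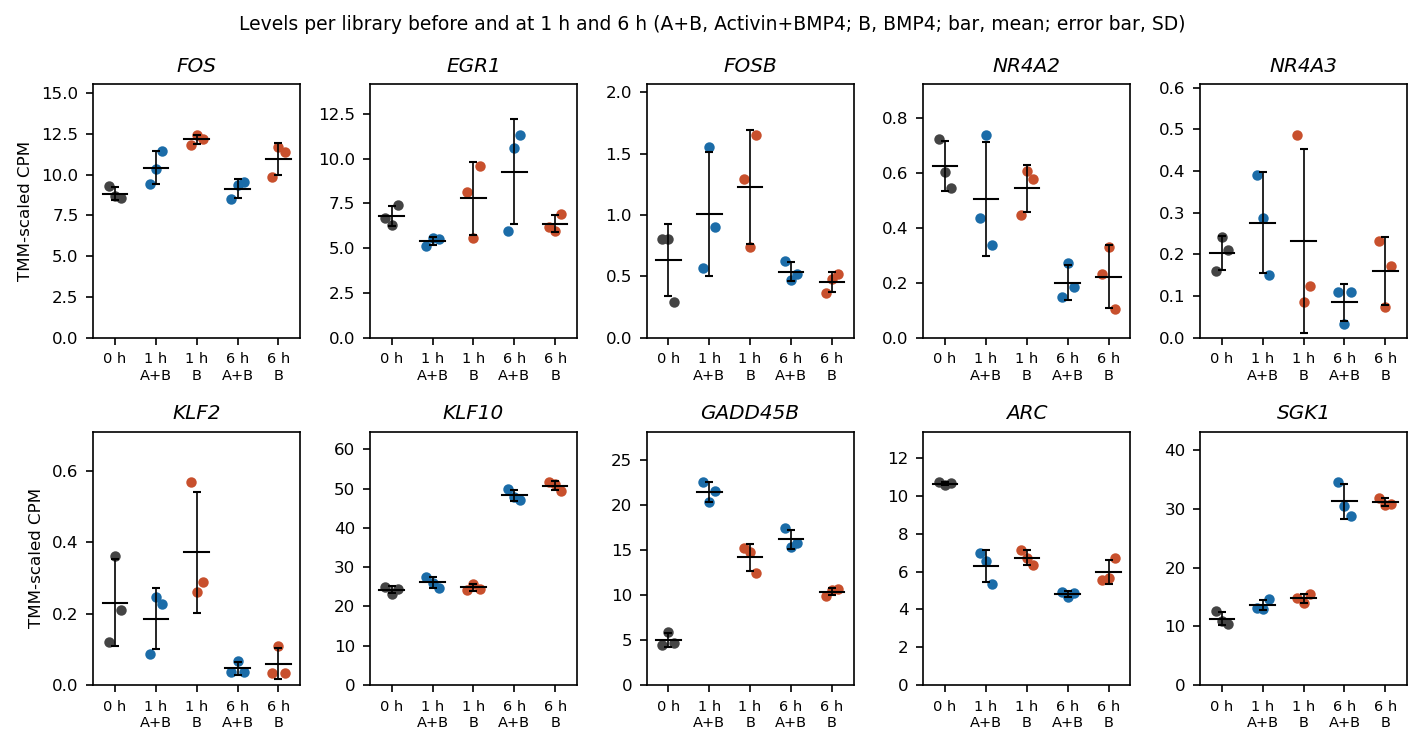
Level of 10 members (vertical axes, CPM, each starting at 0) in untreated cells and at 1 and 6 h of Activin+BMP4 (A+B) and BMP4 (B). Points are libraries, bars group means and error bars SD, n = 3. GADD45B stands above the untreated level at 1 h in all 6 treated libraries, FOS stays between 8.49 and 12.4 CPM, and SGK1 and KLF10 are higher at 6 h.

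At 6 h SGK1 and KLF10 were higher, and NR4A2, KLF2 and ARC were lower. With Activin+BMP4 5 of 33 members were called (5.69% of all genes), GADD45B and SGK1 higher and NR4A2, KLF2 and ARC lower. With BMP4 5 of 33 were called (4.99% of all genes), KLF10, GADD45B and SGK1 higher and NR4A2 and KLF2 lower. At any fold the counts were 16 of 33 (36.2% of all genes) and 18 of 33 (34.8% of all genes). The median log2 change of the members was -0.23 and -0.32, against 0.01 and 0.0065 for all genes.

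SGK1 had 12.6, 10.9 and 10.4 CPM untreated, 34.5, 30.6 and 28.8 CPM at 6 h of Activin+BMP4 and 31.9, 30.7 and 30.8 CPM at 6 h of BMP4. All 6 treated libraries lay above the untreated ones, and the conditions differed by log2 -0.0065 (SE 0.09). The rise was 2.76-fold (log2 1.47, SE 0.10, edgeR adjusted p 5.69e-16) and 2.75-fold (log2 1.46, SE 0.10, edgeR adjusted p 6.98e-16). KLF10, also called TGF-beta inducible early gene, had 25.1, 23.3 and 24.4 CPM untreated, 49.8, 48.0 and 47.0 CPM with Activin+BMP4 and 51.6, 51.1 and 49.5 CPM with BMP4. Untreated and treated libraries were well apart. KLF10 rose 2.09-fold with BMP4 (log2 1.07, SE 0.08, edgeR adjusted p 5.57e-14) and 1.99-fold with Activin+BMP4 (log2 0.99, edgeR adjusted p 4.26e-13), on either side of the 2-fold line. At 1 h KLF10 had not passed the test in either condition.

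GADD45B stood lower at 6 h than at 1 h, with 17.4, 15.3 and 15.7 CPM for Activin+BMP4 and 9.87, 10.5 and 10.6 CPM for BMP4. It remained above untreated 3.23-fold (log2 1.69, SE 0.12, edgeR adjusted p 5.09e-15) and 2.07-fold (log2 1.05, SE 0.13, edgeR adjusted p 6.23e-09). The BMP4 call at 6 h fell just under 2-fold without untreated replicate 1 (log2 0.97). ARC fell further, to 4.94, 4.64 and 4.86 CPM with Activin+BMP4 (2.21-fold below untreated, log2 -1.15, SE 0.16, edgeR adjusted p 2.35e-07) and to 5.57, 5.68 and 6.72 CPM with BMP4 (1.78-fold, edgeR adjusted p 5.05e-05).

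NR4A2, an orphan nuclear receptor, had 0.723, 0.603 and 0.545 CPM untreated, 0.148, 0.271 and 0.184 CPM at 6 h of Activin+BMP4 and 0.234, 0.330 and 0.104 CPM at 6 h of BMP4. All 6 treated libraries were below the untreated ones. The fall was 3.04-fold (log2 -1.60, SE 0.41, edgeR adjusted p 0.00182) and 2.78-fold (log2 -1.48, SE 0.40, edgeR adjusted p 0.00343). KLF2, a factor best known from endothelium and naive pluripotency, had 17 counts over the 3 untreated libraries, 4 at 6 h of Activin+BMP4 and 5 at 6 h of BMP4. Its call (edgeR adjusted p 0.0257 and 0.0439) rests on these few counts: without untreated replicate 2 the adjusted p for Activin+BMP4 was 0.156, and DESeq2 did not call it for BMP4.

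Set against 1 h rather than untreated cells, 6 h showed 3 of 33 members called with Activin+BMP4 (5.11% of all genes) and 5 of 33 with BMP4 (5.01% of all genes). At any fold 21 members (37.1% of all genes) and 16 members (38% of all genes) passed the test. SGK1 rose 2.30-fold (edgeR adjusted p 1.07e-13) and 2.11-fold (edgeR adjusted p 1.86e-12), and KLF10 2.04-fold with BMP4 (edgeR adjusted p 1.40e-13). FOSB fell from the 1 h values above to 0.367, 0.476 and 0.520 CPM with BMP4, 2.70-fold lower (log2 -1.43, SE 0.35, edgeR adjusted p 0.000892) with no overlap. NR4A2 fell 2.45-fold with Activin+BMP4 (edgeR adjusted p 0.0137) and 2.42-fold with BMP4 (edgeR adjusted p 0.0121). The first call was lost without replicate 2 of Activin+BMP4 at 1 h (log2 -0.91) or replicate 1 at 6 h (log2 -1.12), the second without replicate 3 of BMP4 at 6 h (log2 -0.94), and both with no filter on low counts. The remaining calls were NR4A3 with Activin+BMP4, on 7 counts over its 6 h libraries, and KLF2 with BMP4, on 5 counts over its 6 h libraries.

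Neither FOS nor EGR1 was called between 1 and 6 h in either condition. FOS had 8.49, 9.35 and 9.58 CPM at 6 h of Activin+BMP4 and 9.87, 11.7 and 11.4 CPM at 6 h of BMP4, which overlaps the 1 h range in the first condition. EGR1 had 5.94, 10.6 and 11.3 CPM at 6 h of Activin+BMP4, where replicate 1 is far below the other libraries, and 6.20, 5.97 and 6.89 CPM at 6 h of BMP4. The EGR1 change from 1 to 6 h was 1.72-fold upward with Activin+BMP4 (log2 0.78, edgeR adjusted p 0.00105) and log2 -0.29 with BMP4 (edgeR adjusted p 0.236). The test of the difference between these changes called EGR1, as 1 of 33 members (0.296% of all genes, and 4 members at any fold against 1.74%; log2 -1.07, SE 0.27, edgeR adjusted p 0.0217). That call was lost when any of 8 single libraries was left out, with adjusted p up to 0.127.

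At 6 h JUN, MYC, IER2, IER3, GADD45B and RHOB were lower with BMP4 than with Activin+BMP4, below 2-fold, and GADD45B already was at 1 h. Of 33 members, 0 were called by edgeR (0.505% of all genes) or by DESeq2. At any fold 8 passed the test (4.02% of all genes), and 13 had an unadjusted p under 0.05. JUN, the main AP-1 partner of FOS, had 21.7, 23.9 and 23.9 CPM untreated, 20.4, 24.7 and 25.2 CPM with Activin+BMP4 and 11.5, 12.6 and 13.5 CPM with BMP4. The BMP4 libraries stood below both other groups (1.87-fold below Activin+BMP4, log2 -0.90, SE 0.10, edgeR adjusted p 4.50e-09). IER3, a regulator of survival signalling, was 22.1, 22.2 and 21.1 CPM with Activin+BMP4 against 11.8, 12.1 and 12.4 CPM with BMP4 (1.80-fold, edgeR adjusted p 7.22e-06), and the untreated libraries were at 12.9, 12.9 and 13.4 CPM. IER5 and BTG2 were the 2 members higher with BMP4, by 1.21-fold and 1.35-fold.

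Genes of the pathways around the members moved unequally. Of 12 early SMAD targets, 3 were called higher at 1 h of Activin+BMP4 (ID1, SMAD7 and LEFTY1) and 1 at 1 h of BMP4 (ID1), with median log2 changes of 0.70 and 0.73. ID1, an inhibitor of basic helix-loop-helix factors, rose from 82.3 ± 2.30 CPM to 183 ± 11.4 and 199.8 ± 14.1 CPM (SD, n = 3), with edgeR adjusted p of 3.03e-14 and 1.74e-15. By 6 h 11 of the 12 were called higher with Activin+BMP4, and with BMP4 8 were higher and 2, LEFTY1 and NODAL, lower (medians 2.03 and 2.13). Of these lists, the SMAD targets had the highest medians at both times.

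The next list held 14 genes induced by ERK signalling, some of which feed back on it (DUSP, SPRY, SPRED and ETV genes among the 14). Of these, 0 were called at 1 h in either condition by edgeR or DESeq2. At an unadjusted p under 0.05 there were 6 with Activin+BMP4 and 4 with BMP4, and at any fold 4 passed the test, all lower, in each. Of all 19603 genes, 3868 and 4405 had such an unadjusted p at 1 h, and 8.18% and 10.3% passed at any fold. The median log2 change of the 14 genes was -0.06 and -0.11. At 6 h DUSP4, a nuclear MAP kinase phosphatase, was the 1 call with Activin+BMP4, at 28.9 ± 0.898 CPM untreated and 12.8 ± 0.394 CPM treated (SD, n = 3; edgeR adjusted p 2.46e-17). With BMP4 0 were called at 6 h by edgeR or DESeq2, and 10 had an unadjusted p under 0.05 (8408 of all 19603 genes).

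The 14 kinases and factors upstream of the members (median log2 change -0.10 and -0.12 at 1 h) had 0 calls at 1 and 6 h by edgeR or DESeq2, with 7 to 9 at an unadjusted p under 0.05 in each comparison. Heat shock genes (9), unfolded protein and integrated stress genes (8) and p53 targets (8) also had 0 calls at 1 and 6 h with either tool. Their members at an unadjusted p under 0.05 were 5 to 8, 2 to 7 and 3 to 5. Of all 19603 genes, 3868 and 4405 had an unadjusted p under 0.05 at 1 h of Activin+BMP4 and BMP4, and 8629 and 8408 at 6 h. At 6 h 7 of 9 heat shock genes passed the test upward below 2-fold in each condition. Of all genes, 36.2% and 34.8% passed at 6 h at any fold and in either direction. Of 15 other early response genes only HES1, the Notch-linked repressor, was called at 1 h, from 7.24 ± 0.359 CPM to 16.97 ± 2.19 CPM under Activin+BMP4 and 17.6 ± 3.11 CPM under BMP4 (SD, n = 3; edgeR adjusted p 8.02e-11 and 2.32e-11).

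**Figure D2:**
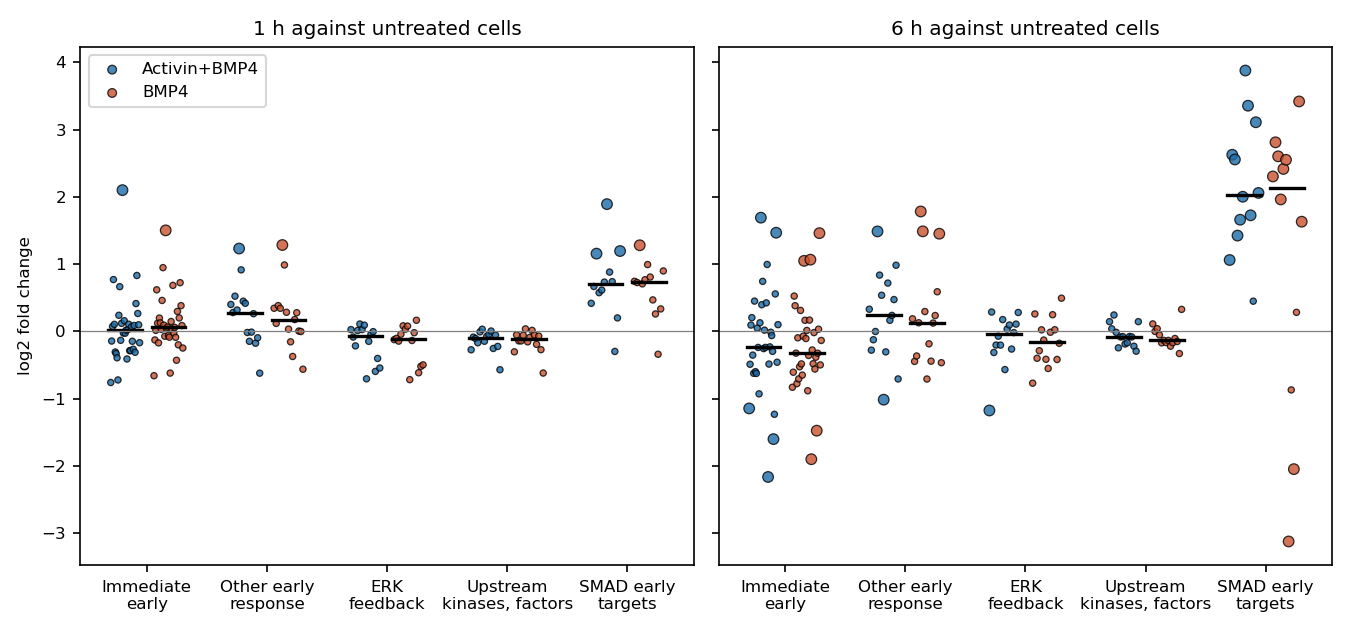
Log2 change against untreated cells of each gene in the members and in the companion lists, at 1 and 6 h of each condition; a dot is a gene, a large dot a called gene, and the bar the median of the list. The early SMAD targets lie highest, with medians of 0.70 and 0.73 at 1 h, while the members have medians of 0.02 and 0.06.

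From 12 h onward the members went separate ways. Of 33 members, those called with Activin+BMP4 at 12, 24, 36, 48, 72 and 96 h numbered 9 (6.82% of all genes), 7 (8.08%), 6 (10.5%), 10 (15.8%), 15 (21%) and 15 (26.5%). With BMP4 they numbered 5 (5.62%), 6 (7.21%), 8 (8.41%), 7 (12.2%), 8 (16.9%) and 13 (23.2%). Passing the test at any fold, in the same order of times, were 22 (38.1%), 20 (40.1%), 17 (42.5%), 23 (52.6%), 26 (64.1%) and 27 (69.7%) with Activin+BMP4 and 19 (36.3%), 16 (38.8%), 20 (41.4%), 19 (50%), 19 (58.3%) and 26 (65.4%) with BMP4. Leaving out replicate 3 of BMP4 at 12 h raised the count there to 8. Over all times 24 of 33 members were called at least at 1 time with Activin+BMP4, 8 higher and 16 lower, and 18 with BMP4, 11 higher and 8 lower, KLF2 in both directions. These comparisons share the same 3 untreated libraries. The share of all genes called at any time was not computed, so these pooled counts support no statement on the members as a group. Both KLF2 calls with BMP4, at 6 and 96 h, were lost under DESeq2 and with no filter.

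Among AP-1 subunits, FOS and FOSL1 fell in both conditions. FOS moved from 8.84 ± 0.387 CPM untreated to 1.96 ± 0.329 CPM at 96 h of Activin+BMP4 and 2.502 ± 0.363 CPM at 96 h of BMP4 (SD, n = 3), 4.51-fold and 3.54-fold lower (edgeR adjusted p 3.31e-20 and 4.95e-18). FOSL1, another FOS-family partner of JUN, was called lower at every time from 12 h in both conditions. It stood at 7.07 ± 0.866 CPM untreated and had its lowest mean, 0.912 ± 0.0770 CPM, at 72 h of BMP4. ATF3, a stress-responsive factor, was 2.28-fold lower at 12 h of Activin+BMP4 and 2.22-fold lower at 12 h of BMP4 (edgeR adjusted p 4.35e-16 and 9.59e-16). At 96 h of Activin+BMP4 ATF3 had its highest group mean, 36.5 CPM against 25.7 CPM untreated, and passed the test upward below 2-fold. With BMP4 ATF3 was also called lower at 72 h, at 12.3 ± 0.377 CPM (SD, n = 3).

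EGR1, EGR2 and EGR3 were each called lower at 72 and 96 h of Activin+BMP4. At 72 h the EGR2 call was lost with no filter (edgeR adjusted p 0.0604) or without Activin+BMP4 replicate 3 (log2 -0.64). The EGR3 call at 72 h was lost under DESeq2 (DESeq2 adjusted p 0.0533) or without Activin+BMP4 replicate 2 (edgeR adjusted p 0.136). At 96 h the EGR2 call was lost without Activin+BMP4 replicate 2 (log2 -0.94). EGR1 was 2.25-fold below untreated at 48 h and 5.06-fold at 72 h (edgeR adjusted p 9.06e-06 and 2.84e-11), whereas with BMP4 it was called only at 36 h, 2.18-fold higher (edgeR adjusted p 2.61e-06). EGR3 had 15 counts over the untreated libraries and 0 at 96 h of Activin+BMP4, which is at least 5.81-fold lower when the 3 libraries together are given 3 counts. EGR2, with 56 counts over the untreated libraries, was already called lower at 12 h of Activin+BMP4, with 24 counts and its lowest group mean, 0.318 CPM (log2 -1.24, edgeR adjusted p 0.00790), a call lost without replicate 1 at 12 h (log2 -0.95). It had 29 and 28 counts at 96 h of Activin+BMP4 and BMP4 (edgeR adjusted p 0.00535 and 0.00499). NR4A3 fell to 2 counts over the libraries at 12 h of Activin+BMP4, from 15 untreated.

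Krüppel-like factors differed from one another. KLF6, a widely expressed factor, had 34.3 ± 1.47 CPM untreated and rose to 86.4 ± 16.2 CPM at 96 h of Activin+BMP4 and 115 ± 17.8 CPM at 96 h of BMP4 (SD, n = 3; edgeR adjusted p 1.01e-16 and 1.49e-20). KLF4, a reprogramming factor, fell 2.58-fold by 48 h of Activin+BMP4 (edgeR adjusted p 6.65e-11). KLF10 had means from 48.0 to 53.3 CPM between 6 and 36 h of both conditions and 23.4 ± 2.14 CPM (SD, n = 3) at 96 h of Activin+BMP4.

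BTG2 and GADD45B, of the growth arrest group, rose in both conditions, and so did IER3. BTG2, an antiproliferative partner of the mRNA deadenylase complex, went from 4.92 ± 0.469 CPM untreated to 50.8 ± 3.33 CPM at 96 h of Activin+BMP4 and 16.5 ± 0.719 CPM at 96 h of BMP4 (SD, n = 3), 10.3-fold and 3.36-fold higher (edgeR adjusted p 8.23e-29 and 2.62e-18). GADD45B reached its highest level at 48 h of Activin+BMP4, 31.2 ± 1.36 CPM, 6.24-fold above untreated (edgeR adjusted p 9.73e-23). IER3 climbed from 13.0 ± 0.295 CPM to 164 ± 2.83 CPM at 48 h of Activin+BMP4, 12.6-fold higher (edgeR adjusted p 1.52e-27). In contrast, IER2 was called lower, and only at 96 h of Activin+BMP4, at 43.4 CPM against 99.1 CPM untreated (2.28-fold, edgeR adjusted p 3.94e-21).

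ARC was lower still at later times in both conditions. Its mean was 3.15 CPM at 24 h, 1.254 at 48 h and 0.505 at 72 h of Activin+BMP4, and 4.78, 1.40 and 0.737 CPM at the same times of BMP4. At 96 h it was 15.9-fold and 17.8-fold below untreated cells (edgeR adjusted p 1.00e-20 and 6.67e-21). RHOB had 20.6 ± 0.408 CPM untreated, was no higher at 12 h (19.5 ± 2.01 and 16.1 ± 0.639 CPM) and peaked at 48 h, at 108 ± 2.04 CPM under Activin+BMP4 and 151 ± 5.60 CPM under BMP4 (SD, n = 3; 5.25-fold and 7.32-fold above untreated, edgeR adjusted p 7.18e-24 and 1.52e-26).

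**Figure D3:**
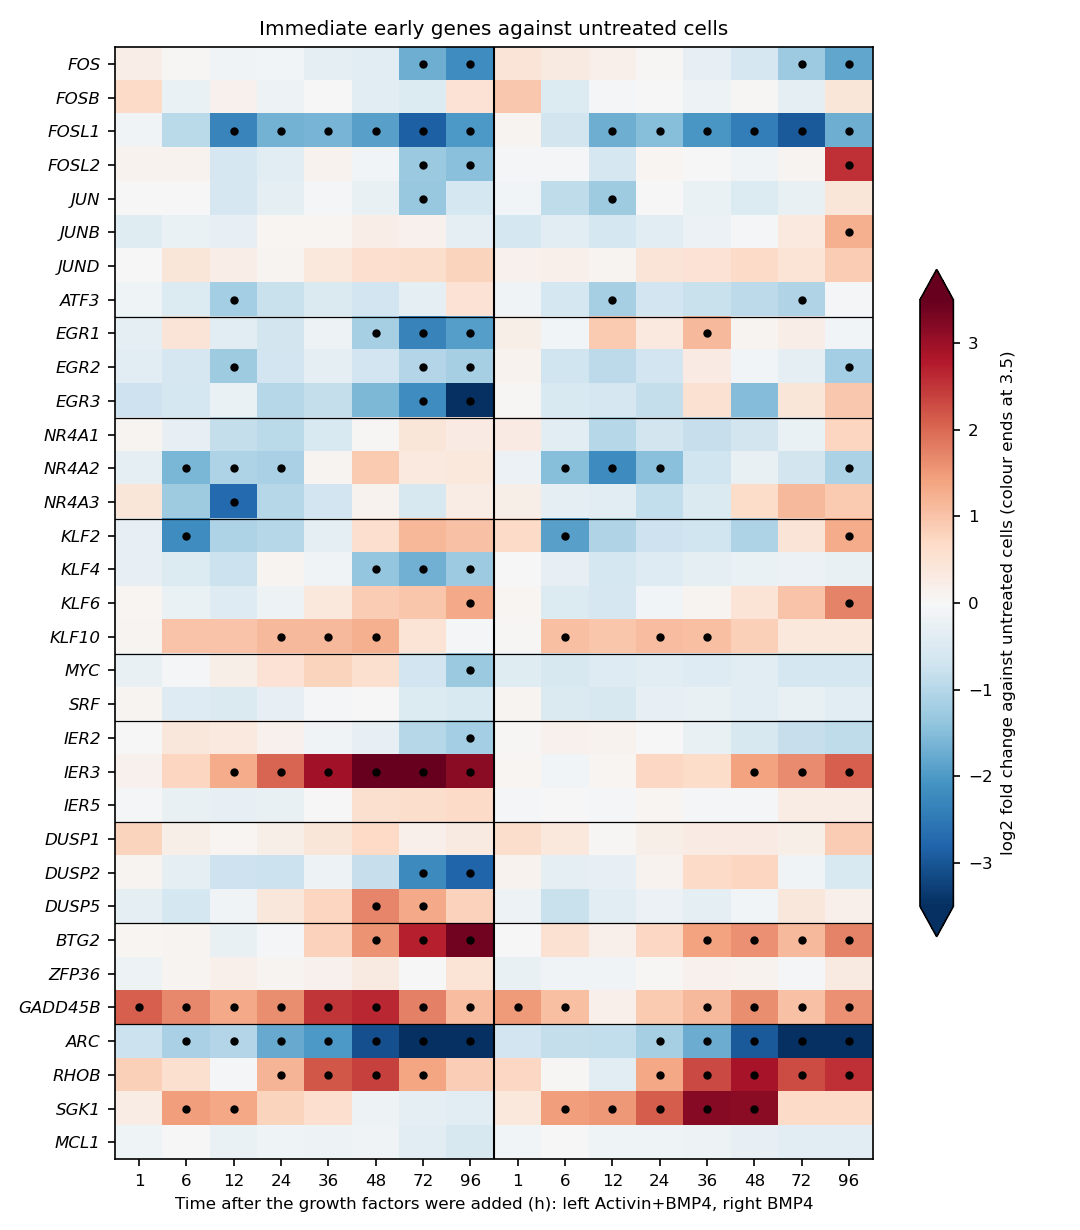
Log2 change against untreated cells of the 33 tested members (rows) at 8 times in h of Activin+BMP4 and of BMP4 (columns), with a black dot on each called change. ARC and FOSL1 are lower along both conditions, IER3, BTG2 and RHOB are higher at late times, and FOSL2 is higher only in the BMP4 96 h column; EGR3 at 96 h and NR4A3 at 12 h of Activin+BMP4 rest on 0 and 2 counts.

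Between the conditions at matched times, the called members of 33 at 12, 24, 36, 48, 72 and 96 h numbered 3 (1.42% of all genes), 2 (4.01%), 6 (5.58%), 9 (9.25%), 10 (9.63%) and 12 (15.6%). At any fold 9 (9.02%), 14 (29.3%), 11 (27.7%), 20 (41%), 20 (39.5%) and 25 (54.4%) passed the test. Over the 8 times 17 members were called, 10 higher and 7 lower with BMP4. The share of all genes called over these times was not computed. The change from 24 to 96 h differed between the conditions for 9 of 33 members (13.6% of all genes), and for 19 at any fold (45.5%), by the test of that difference. Lists of lineage markers differed between the conditions, and for endothelium and blood the order changed with time. Definitive endoderm genes (7) summed to between 603 and 612 CPM at 36 h of Activin+BMP4 and between 42.4 and 46.6 CPM at 36 h of BMP4, and at 96 h to between 3241 and 4316 CPM and between 177 and 211 CPM. Amnion genes (7) summed at 96 h to between 39.2 and 57.9 CPM with Activin+BMP4 and between 1451 and 1640 CPM with BMP4, mesoderm and mesenchyme genes (7) to between 35.4 and 53.1 CPM and between 1257 and 1410 CPM, and endothelium and blood genes (7) to between 213 and 222 CPM and between 767 and 1002 CPM, with HBZ at 0 in BMP4. Endothelium and blood genes had the opposite order at 24, 36 and 48 h. At 48 h they summed to between 522 and 542 CPM with Activin+BMP4 and between 355 and 378 CPM with BMP4. Neural ectoderm genes (6) summed at 96 h to between 302 and 358 CPM with Activin+BMP4 and between 80.8 and 98.3 CPM with BMP4. HES5, of this list, was at 0 in Activin+BMP4 at 96 h. The part of cell makeup in the differences between conditions was not tested.

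**Figure D4:**
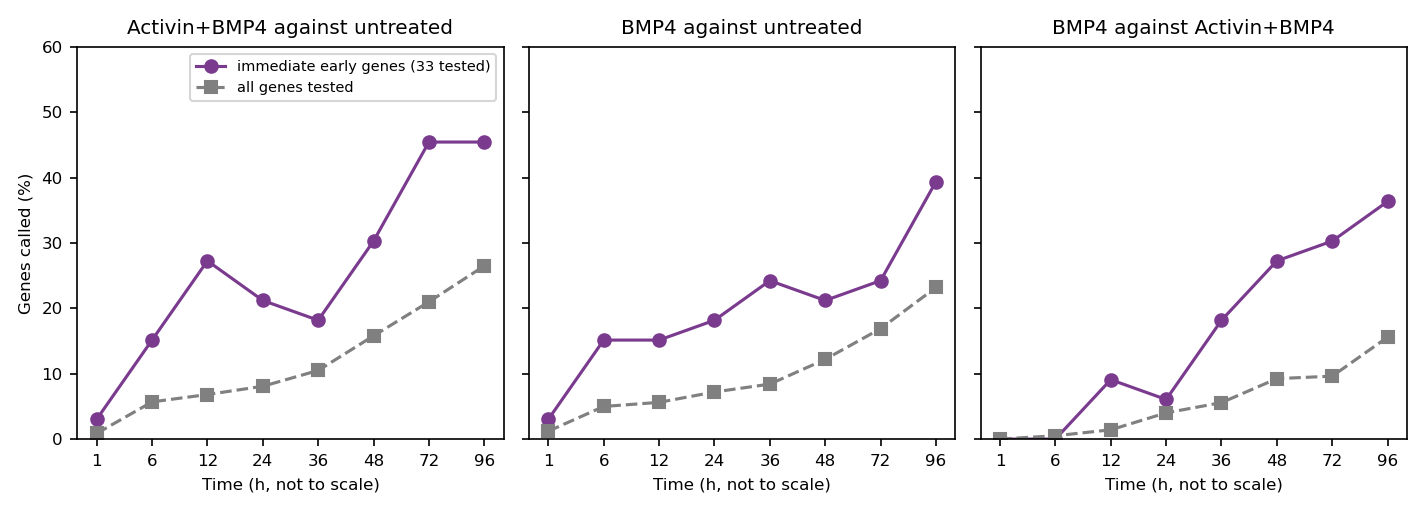
Percent of the 33 tested members (circles) and of all tested genes (squares) called at each time in h, for Activin+BMP4 against untreated cells, BMP4 against untreated cells and BMP4 against Activin+BMP4. The shares of all genes at 96 h are 26.5%, 23.2% and 15.6%, and 15, 13 and 12 of 33 members were called there.

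SGK1 was called higher with BMP4 at each time from 24 h. The 72 h call was lost without Activin+BMP4 replicate 1 (log2 0.83), BMP4 replicate 1 (log2 0.94) or BMP4 replicate 2 (log2 0.999). The 96 h call was lost without BMP4 replicate 2 (log2 0.97). At 36 h SGK1 had 95.6, 104 and 110.4 CPM with BMP4 and a mean of 16.9 ± 1.03 CPM (SD, n = 3) with Activin+BMP4. At 48 h it had 102, 101 and 98.7 CPM with BMP4 and 9.16, 10.3 and 10.4 CPM with Activin+BMP4. The groups were far apart, 10.1-fold at 48 h (log2 3.34, SE 0.09, edgeR adjusted p 4.21e-29), and the difference was log2 3.36 without the libraries that stood apart. The BMP4 level then fell 5.52-fold by 72 h, to 18.2 ± 1.73 CPM (SD, n = 3; edgeR adjusted p 2.39e-25).

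FOSL2, a FOS-family subunit, stood at 10.5 ± 0.656 CPM untreated and 11.3 ± 1.07 CPM at 72 h of BMP4 (SD, n = 3). It had 69.4, 68.9 and 46.9 CPM at 96 h of BMP4. At 96 h of Activin+BMP4 it had 4.22, 4.05 and 3.17 CPM. This is the widest difference between conditions among members with more than 3 counts in each group, 16.2-fold (log2 4.02, SE 0.12, edgeR adjusted p 2.01e-29), and log2 3.90 without the libraries that stood apart. JUNB and JUN, AP-1 partners of the FOS family, were higher too at 96 h of BMP4. JUNB stood at 7.68 ± 1.43 CPM against 2.58 ± 0.402 CPM (SD, n = 3; 2.96-fold, edgeR adjusted p 2.98e-09). JUN stood at 31.3 ± 5.31 CPM against 15.04 ± 0.531 CPM (2.08-fold, edgeR adjusted p 6.24e-13), just past 2-fold, and the JUN call was lost without replicate 1 (log2 0.99) or replicate 2 (log2 0.97) of BMP4 at 96 h.

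EGR1 was higher with BMP4 at all 6 times from 12 h, at 24 h by 1.96-fold (edgeR adjusted p 0.000206) and at the other 5 by at least the 2-fold threshold. At 72 h it had 7.95, 7.63 and 8.34 CPM with BMP4 and 1.15, 1.24 and 1.61 CPM with Activin+BMP4, without overlap (5.93-fold, log2 2.57, SE 0.24, edgeR adjusted p 3.42e-12). EGR3 had 33 counts over the BMP4 libraries at 96 h and 0 over those of Activin+BMP4, at least 11.2-fold higher (edgeR adjusted p 1.41e-05). At 72 h it had 22 and 3 counts, a ratio of 6.59 with a 95% counting interval from 1.98 to 34.4. DUSP2, a nuclear phosphatase of ERK, had 8.49, 7.61 and 7.56 CPM at 48 h of BMP4 and 2.95, 2.91 and 2.14 CPM at 48 h of Activin+BMP4 (2.96-fold, log2 1.57, SE 0.15, edgeR adjusted p 5.79e-12).

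IER3, DUSP5, GADD45B and BTG2 were called lower with BMP4. The DUSP5 calls were at 36 and 48 h only, and GADD45B and BTG2 were also called at some times only. IER3 was called lower with BMP4 at every time from 12 h, and at 36 h had 18.1, 21.3 and 21.4 CPM with BMP4 against 98.2, 101 and 100.3 CPM with Activin+BMP4. The groups lay 4.91-fold apart (log2 -2.30, SE 0.11, edgeR adjusted p 1.79e-20). The IER3 call at 96 h was lost without Activin+BMP4 replicate 1 (log2 -0.93) or BMP4 replicate 3 (log2 -0.91). DUSP5, a phosphatase that holds ERK in the nucleus, had 26.1, 26.1 and 28.2 CPM at 48 h of BMP4 and 97.1, 92.5 and 93.2 CPM at 48 h of Activin+BMP4 (3.52-fold, log2 -1.81, SE 0.10, edgeR adjusted p 2.70e-19). With BMP4 DUSP5 was thus close to its untreated level of 28.7 ± 0.417 CPM (SD, n = 3). GADD45B was called lower with BMP4 at 12, 36 and 48 h; the 48 h difference lay at the threshold (log2 -1.002) and was log2 -0.98 without the libraries that stood apart. At 96 h GADD45B was instead 1.44-fold higher with BMP4 (log2 0.53, edgeR adjusted p 5.99e-05).

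BTG2 had 15.8, 16.5 and 17.2 CPM at 96 h of BMP4 and 48.1, 49.8 and 54.5 CPM at 96 h of Activin+BMP4 (3.08-fold, log2 -1.62, SE 0.09, edgeR adjusted p 1.19e-19). Earlier, BTG2 was higher with BMP4, below the 2-fold threshold, at 12, 24 and 36 h (log2 0.45, 0.75 and 0.59, edgeR adjusted p 0.00995, 2.34e-06 and 1.24e-05). RHOB had the opposite order at 96 h, 135, 132 and 94.1 CPM with BMP4 and 39.6, 39.2 and 33.6 CPM with Activin+BMP4 (3.21-fold, log2 1.68, SE 0.09, edgeR adjusted p 5.75e-20). MYC was lower with BMP4 at 36 h, at 54.9 ± 3.90 CPM against 131 ± 3.81 CPM (SD, n = 3; 2.38-fold, edgeR adjusted p 1.16e-15), and at 96 h of Activin+BMP4 its mean was 30.7 ± 2.26 CPM against 50.0 ± 12.8 CPM with BMP4. For BTG2 and RHOB all libraries of one condition lay above all of the other.

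**Figure D5:**
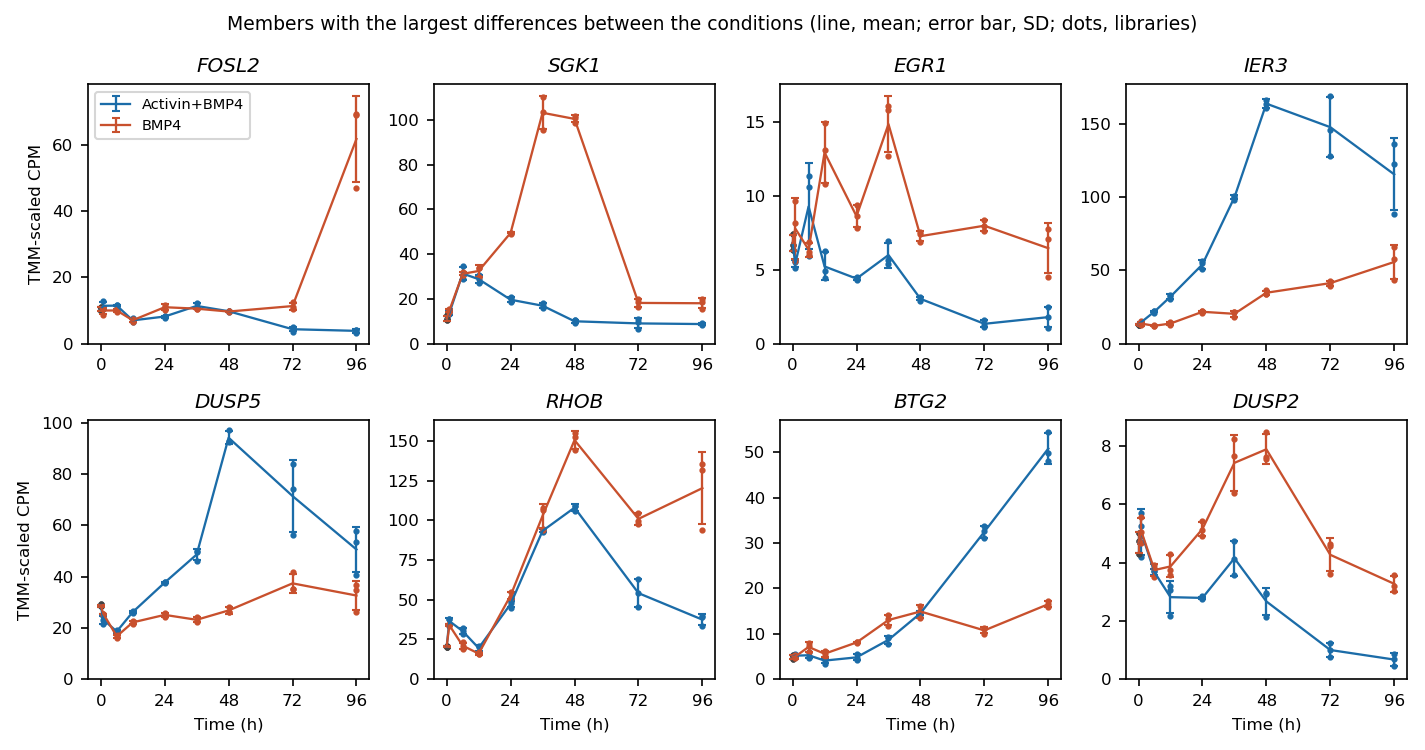
Level of 8 members in every library over time (vertical axes, CPM, each starting at 0; horizontal axes, time in h), with dots for libraries, lines through the group means of Activin+BMP4 and BMP4, and error bars for SD, n = 3. SGK1 with BMP4 peaks at 36 and 48 h, FOSL2 with BMP4 is high only at 96 h, and IER3 and DUSP5 with Activin+BMP4 reach 164 and 94.2 CPM at 48 h.

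Among the 34 members, 9 were never called against untreated cells or between conditions: FOSB, JUND, NR4A1, SRF, IER5, DUSP1, ZFP36, MCL1 and EGR4, which was not tested. The share of all genes never called was not computed. SRF, the factor that binds the CArG box, ranged only from 83.2 to 130.2 CPM over the 17 groups, and MCL1 from 302 to 448 CPM. ZFP36, which marks AU-rich mRNAs for decay, ranged from 5.76 to 9.57 CPM. DUSP1 had its lowest group mean, 5.68 CPM, in untreated cells and its highest, 10.6 CPM, at 96 h of BMP4.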

How the data were processed

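Gene counts per library were deposited by the authors as whole numbers. The submitters' processing notes name cutadapt 1.5, STAR 2.5.2a, RSEM 1.3.0 and GRCh38 without roles. Annotation release, strand setting and filters are not given in the sources used here, nor whether the counts are rounded RSEM estimates, so reads of overlapping or antisense genes cannot be told apart. All 51 count columns matched a sample, and 56948 of 58051 rows have a symbol.

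Counts were tested with edgeR 4.0.16 (R 4.3.3): filterByExpr (minimum count 10, minimum total 15) kept 19603 genes, TMM factors ran from 0.966 to 1.03, and quasi-likelihood tests were fitted to all 51 libraries for 40 comparisons, with Benjamini-Hochberg adjustment over all genes. A call needs adjusted p under 0.05 and at least 2-fold. Levels are TMM-scaled CPM. Exon lengths came from GENCODE 29, which held 57447 of the rows. The scripts were tested on simulated data. For a fold against 0 counts, 3 counts over the 3 libraries stood in as a floor, and ratios over 1 to 3 counts carry 95% intervals for counting error only.

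Per-library values are given for FOS, EGR1, members called at 1 or 6 h or between these times, and the 8 members with the largest called differences between conditions where the higher of the 2 means reached 5 CPM; other members are described by role. The members, the companion lists and the marker lists were chosen with earlier results of these data known. Alternatives were DESeq2 1.42.0, RLE factors, library totals, other filters, the compared groups alone, a replicate block and each library left out.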

Additional observations from a re-analysis of the deposited data

Results flagged for a closer look

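The change from 1 to 6 h differed between the conditions for EGR1: BMP4 minus Activin+BMP4 was log2 -1.07 (SE 0.27, edgeR adjusted p 0.0217), and the call was lost when any of 8 single libraries was left out.

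The change from 24 to 96 h differed between the conditions for 9 of 33 members (13.6% of all genes; 19 members at any fold, 45.5% of all genes), by an edgeR interaction test of BMP4 minus Activin+BMP4. FOSL2 (log2 3.59, SE 0.16, edgeR adjusted p 1.06e-21) and JUNB (2.02, SE 0.28, edgeR adjusted p 1.20e-07) are the AP-1 subunits among them. MYC (1.603, SE 0.13), RHOB (1.53, SE 0.13), KLF4 (1.56, SE 0.19), DUSP2 (1.40, SE 0.25) and GADD45B (1.24, SE 0.16) also had a positive difference of change. BTG2 had a negative one (-2.37, SE 0.15, edgeR adjusted p 1.64e-17). A positive difference is a larger rise or a smaller fall with BMP4, and the mean of MYC fell from 24 to 96 h in both conditions. The fitted value of EGR3 (6.20, SE 1.63) involves 0 counts at 96 h of Activin+BMP4 and is not a bound. Without the libraries that stood apart, 10 members were called in this test.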

How the results depend on the processing

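Of 204 called member results, 170 kept the call under every alternative run. Of 2759 values under alternatives 107 lost the call and 0 changed sign. Losses were 7 under DESeq2, 0 under RLE factors, 4 with library totals only, 11 with no filter, 1 of 187 with at least 1 CPM in 3 libraries, 3 of 191 with only the compared groups fitted and 2 of 77 without the libraries that stood apart (EGR1 from 6 to 12 h of BMP4, log2 0.91, and GADD45B between conditions at 48 h, log2 -0.98); the cause was not tested.

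Without the 2-fold requirement, members passing at 1 to 96 h numbered 6, 16, 22, 20, 17, 23, 26 and 27 for Activin+BMP4 against untreated, 7, 18, 19, 16, 20, 19, 19 and 26 for BMP4 against untreated, and 1, 8, 9, 14, 11, 20, 20 and 25 between conditions. They were 21 and 16 from 1 to 6 h of Activin+BMP4 and BMP4, and 4 and 19 for the differences of change from 1 to 6 h and 24 to 96 h. With the 2-fold requirement kept, the Activin+BMP4 count from 1 to 6 h was 3 in the main run. It was 1 with no filter and 1 with only the compared groups fitted.

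With single libraries left out, counts ran from 1 to 4 for 1 to 6 h of Activin+BMP4 (1 without Activin+BMP4 1 h replicate 2), 1 to 2 for BMP4 at 1 h, 3 to 5 for BMP4 at 6 h (3 without untreated replicate 3), 5 to 8 for BMP4 at 12 h and 0 to 1 for the difference of change from 1 to 6 h. Early calls of KLF2, NR4A2 and NR4A3, which have low counts, were among those lost.

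The replicate block lost 0 of the 204 calls; for example GADD45B at 1 h of Activin+BMP4 was log2 2.10 with the block. Same-numbered libraries did not deviate together: 408 pairs had a median correlation of 0.0036 (range -0.386 to 0.509), with 93 over 0.1, and 24 of 51 libraries were closest on average to their own number. Numbers were therefore not taken as pairs. Depth limits EGR3, EGR4, NR4A3 and KLF2, which had at most 20 counts in any library.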
